A study of Mus musculus with 6 samples.

Results

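Chemokines and their receptors were examined as a family in the olfactory bulb (OB) of aged Tg2576 mice. The members were taken by name, as every probe set whose platform gene symbol is that of a CC, CXC, CX3C or XC chemokine (Ccl, Cxcl, Cx3cl1, Xcl1), of a receptor for one (Ccr, Cxcr, Cx3cr1, Xcr1) or of an atypical chemokine receptor (Ackr1 to Ackr4). This gave 61 probe sets for 60 genes, of 19505 named genes and 22206 probe sets tested on the array, and the probe set with the highest mean stood for a gene that had several. There were 38 ligand genes and 22 receptor genes. Ccl21b and Ccl21c had the same value in every array, so the 60 genes rest on 59 measurements. Ccl21d and Ccl27b, which also carry names of this family, were not analysed here.

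The OBs came from female mice of 18 months, 3 Tg2576 transgenic mice and 3 wild-type (WT) littermates, each mouse measured on its own Clarion S array from Affymetrix. Tg2576 mice carry human APP with the Swedish double mutation under the hamster prion promoter, and the WT mice lack it. The values are log2 levels, and 1 unit is a doubling. App itself was between 12.32 and 12.37 in Tg2576 and between 12.28 and 12.42 in WT OBs, a log2 difference of -0.023 (SE 0.0755). The sources used here do not say whether the probes of App detect the human transgene. Array medians lay between 8.18 and 8.22. Of 12 markers of bulb interneurons, 10 were clear of the negative controls. Relative to the WT mean, 18 non-neuronal markers of the olfactory mucosa averaged 1.32 and 1.22 in Tg2576 replicates 1 and 3 but -0.14 in replicate 2, which stood apart, and -0.23 to 0.31 in the WT arrays. Markers of olfactory sensory neurons (14 genes) averaged 0.24 to 0.49 in Tg2576 and -0.07 to 0.13 in WT OBs. Those of mitral and tufted cells of the bulb (8 genes) averaged 0.15 to 0.26 and -0.07 to 0.08. Past the thresholds used below, all higher, were 4 of the 14 sensory neuron markers (Omp, Adcy3, Gnal and Stoml3). So were 1 of the 18 mucosal markers, Trp63, and 1 of the 8 mitral and tufted markers, Tbx21. The share of all probe sets that were higher and past them was 0.698%.

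Chemokines are small secreted or membrane-bound proteins that steer cells along their gradients. They signal through receptors coupled to inhibitory G proteins, whereas atypical receptors bind the same ligands without G protein signalling and take them up or hold them. In the brain Cx3cl1 of neurons acts on Cx3cr1 of microglia, and Cxcl12 acts on Cxcr4 of migrating neural precursors. Inflammatory members such as Ccl2, Ccl3, Cxcl1 and Cxcl10 are induced in glia and recruit leukocytes, and many of them are known targets of NF-κB.

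No chemokine or chemokine receptor gene passed the study's thresholds, an unadjusted p under 0.01 with a fold over 1.3 or under 0.7, in a limma fit across all probe sets. Over the whole array 177 of 22206 probe sets, 0.797%, passed them (0.698% higher and 0.0991% lower). The fold limits are unequal on the log2 scale, so this split of 155 higher and 22 lower became 155 and 75 with equal fold limits and 280 and 188 with none. None of the 60 members had an unadjusted p under 0.01 at any fold, against 2.11% of all probe sets. Among the members given by array below, Ccr6 aside, some came under 0.01 in alternative fits. These were Xcr1 in 6 of the alternative fits (0.00525 to 0.00995 in limma), Ccr3 without Tg2576 replicate 3 (0.00375) and Cxcl16 without WT replicate 2 (0.00841). Each had a fold inside the thresholds. After Benjamini-Hochberg adjustment over all probe sets the smallest adjusted p of a member was 0.474 with limma and 0.435 with limma-trend. Over the whole array the smallest was 0.332 with limma, and 0 probe sets passed a false discovery rate of 5%. The 177 probe sets past the thresholds therefore did not survive adjustment either. At an unadjusted p under 0.05 there were 6 of 60 members, against 8.54% of all probe sets, of which 2 were higher in Tg2576 OBs (Xcr1 and Cxcl16) and 4 were lower (Ccr9, Ackr4, Ccl25 and Ccr3). The shares over all probe sets were 4.57% higher and 3.97% lower. In 7 members, 11.7%, no Tg2576 array fell within the range of the WT arrays and every one was on the same side, 3 higher and 4 lower, against 14.1% of all probe sets (7.03% in each direction). Both shares of members were near those of the whole array.

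The differences of the family were small. Their median was -0.016, beside -0.0049 over all probe sets, with 26 members above 0 and 34 below. They ran from -0.34 (Ccr3) to 0.29 (Xcr1), and 11 of 60 were farther than 0.2 from 0. The median was -0.0065 over the ligands and -0.021 over the receptors. For 44 members the whole 95% confidence interval of the difference lay inside the fold thresholds, which are at -0.51 and 0.38 on the log2 scale. For the other 16 it reached past one of them, so a change of that size was not excluded by these arrays. The number of arrays limits this precision, and the median standard error of a member's difference was 0.105.

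**Figure D1:**
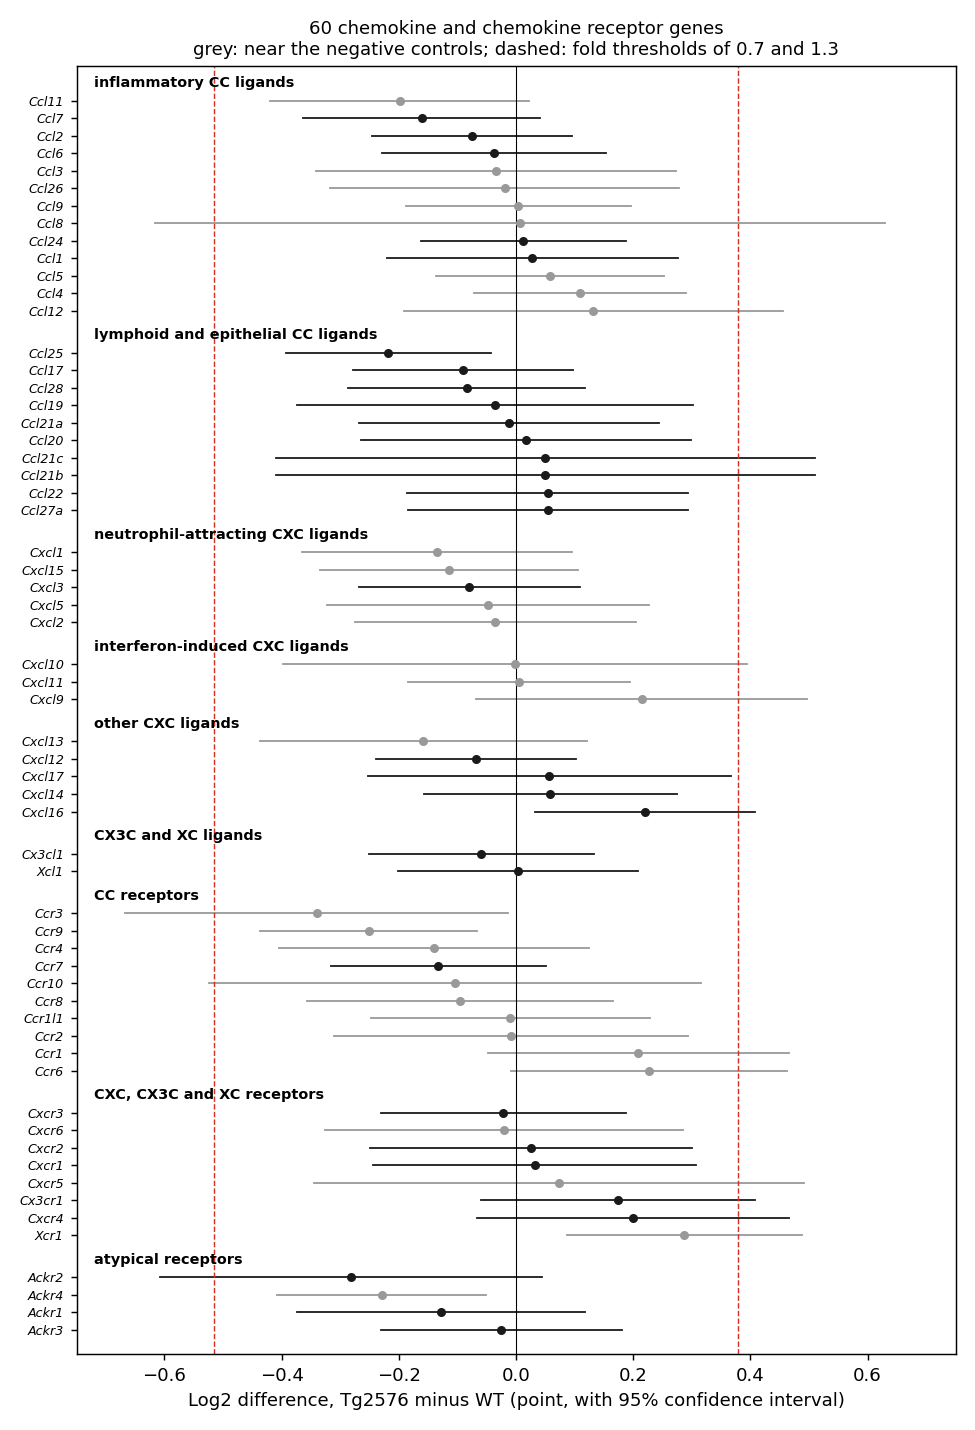
Log2 difference (Tg2576 minus WT) of the 60 members by role, with points for the limma estimate and lines for its 95% confidence interval; grey marks members near the negative controls and the dashed lines are the fold thresholds. All points lie between -0.34 and 0.29, inside both thresholds, and 6 intervals leave out 0.

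Many members were at the level of probes that should bind no transcript of a gene. The array's 5222 negative controls had medians between 6.78 and 6.91, and 29 of 60 members, 48.3%, had both genotype means at or under 6.91, against 27.2% of all probe sets. These are called near the negative controls below, and differences are compressed there. No genotype mean of a member was above the 95th percentile of the negative controls, which was 10.07 in the highest array. For 17.7% of all probe sets a genotype mean was above it. In single arrays Ccl27a (10.16 in WT replicate 1) and Ackr1 (10.13 in WT replicate 2) were above 10.07. Near the negative controls were 9 of 10 CC receptors, all except Ccr7, and all 3 interferon-induced ligands, Cxcl9, Cxcl10 and Cxcl11. So were 4 of 5 neutrophil-attracting ligands, all except Cxcl3, and 8 of 13 inflammatory CC ligands. None of the 10 CC ligands of lymphoid and epithelial tissues was there. Of the 6 members with an unadjusted p under 0.05, 4 were near the negative controls, and only Ccl25 and Cxcl16 lay above their medians. Over all probe sets an unadjusted p under 0.05 was found for 9.59% of those near the negative controls and for 8.59% of those between their median and 95th percentile.

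Promoter sequences were looked up because the study asks about NF-κB, whose subunits bind the κB motif in many chemokine promoters. RefSeq promoters (GRCm38.p6, 250 bases before to 50 after the start site) were found for 45 of the 60 genes. The κB motif was searched on either strand as GGG, A or G, any 2 bases, C or T at 2 places, and CC. It was in the promoter of 12 of these genes (26.7%), against 9.55% of 27025 genes in the table. A further match in the Cxcl10 promoter (chr5:92349025-92349062) and those of the receptors Ackr2 and Ccr1 are not shown. The windows below show the motif in capitals in the direction of the gene, where hits on both strands overlap as 1 stretch. They are from the CXC ligands and from 2 of the receptors that have it.
Cxcl1 (chr5:90891160-90891198, plus strand): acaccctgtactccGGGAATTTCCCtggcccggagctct
Cxcl2 (chr5:90903788-90903826, plus strand): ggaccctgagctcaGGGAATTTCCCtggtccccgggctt
Cxcl3 (chr5:90786014-90786052, plus strand): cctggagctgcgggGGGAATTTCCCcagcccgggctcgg
Cxcl10 (chr5:92348969-92349007, minus strand): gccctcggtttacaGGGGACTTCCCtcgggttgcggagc
Ccr3 (chr9:124021778-124021815, plus strand): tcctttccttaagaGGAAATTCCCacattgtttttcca
Ccr6 (chr17:8242431-8242469, plus strand): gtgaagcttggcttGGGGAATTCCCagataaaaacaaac
The neighbouring genes Cxcl1, Cxcl2 and Cxcl3 carry the same stretch. Among the 12 genes with the motif (also Ackr2, Ccl1, Ccl9, Ccl20, Ccl27a and Ccr1), 6 differences were above 0 and 6 below, with a median of 0.0014. A match is a description of these letters and does not show that the factor binds.

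Xcr1, the receptor of Xcl1 and a marker of cross-presenting dendritic cells, had the largest positive difference. It was at 6.59, 6.69 and 6.51 in Tg2576 replicates 1 to 3 and at 6.20, 6.40 and 6.33 in the WT replicates. The genotypes did not overlap, although every array was under the medians of the negative controls. The log2 difference was 0.29 (SE 0.0877, limma unadjusted p = 0.0104, adjusted p = 0.474), and it stayed at an unadjusted p under 0.05 in each of the 6 fits without 1 array (0.23 to 0.33). Its ligand Xcl1 differed by 0.0037 (SE 0.0899). Of the 7 other dendritic cell markers measured, 1 was higher and 6 were lower in the mean of Tg2576 OBs. Their mean was -0.16 to -0.06 relative to WT in the Tg2576 arrays and -0.07 to 0.04 in the WT arrays, so the ranges met. Batf3, the transcription factor of that dendritic lineage, differed by -0.40 (SE 0.0745, limma unadjusted p = 0.000578, adjusted p = 0.332). Its fold did not reach the lower threshold of 0.7. Clec9a, another marker of the lineage, differed by -0.26 (SE 0.178) and was near the negative controls. None of the 7 passed the thresholds. In bulk tissue, the number of cells of a type and the RNA per cell cannot be told apart, and a change in dendritic cells was not tested.

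Ccl25, its receptor Ccr9 and the scavenger receptor Ackr4, which takes up Ccl25 together with Ccl19 and Ccl21, were all lower in Tg2576 OBs at an unadjusted p under 0.05. Ccl25, known from thymic and intestinal epithelium, was at 9.13, 9.10 and 9.10 in Tg2576 and at 9.26, 9.42 and 9.31 in WT OBs. The Tg2576 arrays were within 0.03 of each other and below every WT array. The difference was -0.22 (SE 0.0766, adjusted p = 0.518 with limma), with an interval from -0.39 to -0.04. Ccr9, which guides thymocytes and lymphocytes of the gut, was at 5.70, 5.83 and 5.86 in Tg2576 and at 5.97, 6.07 and 6.10 in WT OBs, again without overlap, and differed by -0.25 (SE 0.0811, adjusted p = 0.496). Ackr4 was at 5.97, 5.91 and 5.87 in Tg2576 and at 6.06, 6.22 and 6.16 in WT OBs. It differed by -0.23 (SE 0.0784, adjusted p = 0.508). Ccr9 and Ackr4 were near the negative controls in all arrays, so of these 3 genes only the ligand lay above the control medians, and it was under their 95th percentile. Without 1 array the unadjusted p stayed under 0.05 in 5 of 6 fits for Ccr9 and Ackr4 and in 3 of 6 for Ccl25. With limma-trend (robust) it was 0.0662 for Ackr4, 0.0494 for Ccr9 and 0.0155 for Ccl25.

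The promoters of these 3 genes are given as members that were lower together, each with 250 bases before and 50 after the start site. Capitals mark TATAAA, the core of the TATA box, searched on both strands.
Ccl25 (chr8:4349338-4349637, plus strand, the downstream of 2 starts): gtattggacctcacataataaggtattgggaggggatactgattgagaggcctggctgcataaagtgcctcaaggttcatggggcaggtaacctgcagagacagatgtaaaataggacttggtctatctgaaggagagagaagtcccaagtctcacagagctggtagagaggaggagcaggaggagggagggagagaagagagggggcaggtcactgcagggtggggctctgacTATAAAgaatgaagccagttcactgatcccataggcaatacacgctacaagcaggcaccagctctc
Ccr9 (chr9:123766961-123767260, plus strand): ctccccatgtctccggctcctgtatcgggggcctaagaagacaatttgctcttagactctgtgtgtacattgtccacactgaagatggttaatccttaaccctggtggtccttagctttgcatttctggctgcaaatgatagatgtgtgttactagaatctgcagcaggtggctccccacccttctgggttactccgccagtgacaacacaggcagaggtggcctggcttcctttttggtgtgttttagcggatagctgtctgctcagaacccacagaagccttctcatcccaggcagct
Ackr4 (chr9:104126594-104126893, minus strand): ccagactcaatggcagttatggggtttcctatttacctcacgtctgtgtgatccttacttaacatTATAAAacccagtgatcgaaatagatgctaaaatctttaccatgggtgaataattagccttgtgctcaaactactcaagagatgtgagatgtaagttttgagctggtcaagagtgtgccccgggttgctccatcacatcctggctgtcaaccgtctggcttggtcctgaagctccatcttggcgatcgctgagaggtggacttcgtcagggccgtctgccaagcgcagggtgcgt
TATAAA begins at position -16 of the Ccl25 window and at -185 of the Ackr4 window, and these letters are not in the Ccr9 window. The promoter of the upstream start of Ccl25, not shown, lacks them too. Xcr1, which was higher in Tg2576 OBs, has them on the other strand at -160. They are therefore not a feature of all 3 genes, nor of these genes only. The hexamer was in the promoters of 14 of 45 member genes (31.1%), against 15.7% of all genes in the table. The κB motif and the core of the interferon-stimulated response element (GAAA, any 2 bases, GAAA) were in none of these 3 windows. That core was found in Ccl19, Cxcl10 and Cxcl14 only, 6.67% of the member genes, against 3.99% of all genes.

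Cxcl16, a transmembrane chemokine that also binds oxidised lipoprotein, was the only ligand that was higher at an unadjusted p under 0.05. It was at 8.49, 8.48 and 8.52 in Tg2576 and at 8.26, 8.39 and 8.17 in WT OBs. All Tg2576 arrays lay above all WT arrays, replicate 2 included. The difference was 0.22 (SE 0.0822, adjusted p = 0.533 with limma), and its unadjusted p was under 0.05 in 1 of 6 fits without 1 array (0.17 to 0.28). Cxcr6, the receptor of Cxcl16 on T cells, was at 6.41, 6.15 and 6.41 in Tg2576 and at 6.06, 6.54 and 6.42 in WT OBs, with a difference of -0.021 (SE 0.134). Adam10 and Adam17 shed Cxcl16 and Cx3cl1 from the membrane. Adam17 differed by 0.30 (SE 0.111, unadjusted p = 0.0255 in limma) and Adam10 by 0.15 (SE 0.108). Markers of astrocytes and endothelium were also higher, with list means relative to WT of 0.14 to 0.24 and of 0.13 to 0.30 in the Tg2576 arrays. Gfap and Cldn5, 1 of 10 in each list, were higher past the thresholds, against 0.698% of all probe sets. The part of these cells in the level of Cxcl16 was not tested.

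Ccr3, the eotaxin receptor of eosinophils, had the lowest difference. It was at 5.45, 5.28 and 5.81 in Tg2576 and at 5.74, 6.04 and 5.78 in WT OBs, so Tg2576 replicate 3 lay among the WT arrays. The difference of -0.34 (SE 0.143, adjusted p = 0.571 with limma) lay between levels that were all under the medians of the negative controls, and without 1 array it ran from -0.49 to -0.22. Ccl11, a ligand of Ccr3, differed by -0.20 (SE 0.0966) and was also near the negative controls. Ccr6, the receptor of Ccl20 on B cells and T helper cells, was higher in every Tg2576 array, at 6.93, 6.60 and 6.69 against 6.42, 6.54 and 6.57 in WT OBs, yet its difference of 0.23 (SE 0.103) had an unadjusted p of 0.0571 in limma.

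**Figure D2:**
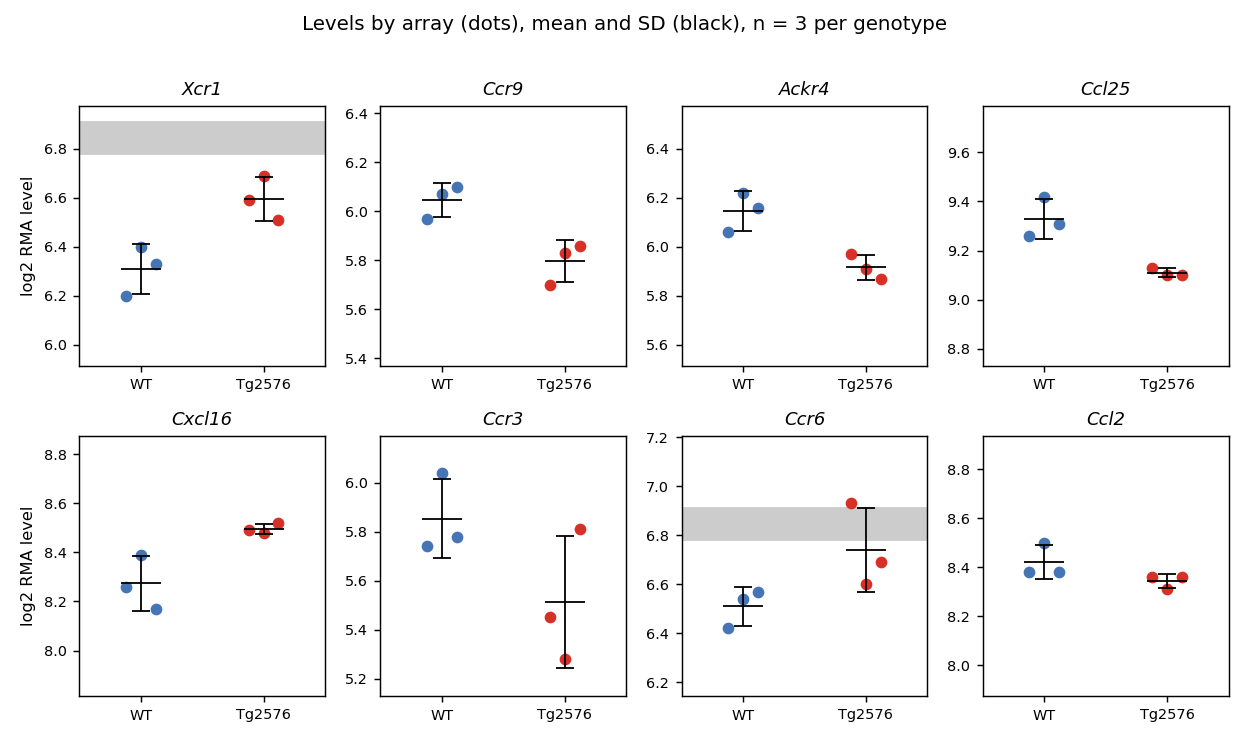
Log2 RMA level of 8 members in each array (dots), with the mean and SD of 3 arrays per genotype (black); the grey band, where it falls in view, spans the medians of the negative controls, 6.78 to 6.91, and all panels have the same height in log2 units. Xcr1, Cxcl16 and Ccr6 lie higher and Ccr9, Ackr4, Ccl25 and Ccl2 lower in all Tg2576 arrays, while for Ccr3 the genotypes overlap.

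The chemokine axes best known in brain tissue did not pass the thresholds. Cx3cl1, the neuronal fractalkine, was at 9.42, 9.37 and 9.44 in Tg2576 and at 9.36, 9.46 and 9.59 in WT OBs. The difference was -0.059, with an interval from -0.25 to 0.13. Cx3cr1, its receptor on microglia, was at 8.62, 8.70 and 8.70 in Tg2576 and at 8.43, 8.35 and 8.71 in WT OBs. WT replicate 3 reached the Tg2576 level, and the difference was 0.17 (SE 0.102, interval -0.06 to 0.41). The mean of 15 other microglial markers, relative to WT, was 0.04 to 0.05 in the Tg2576 arrays and between -0.04 and 0.03 in the WT arrays. None of these markers passed the thresholds. At an unadjusted p under 0.05 were Csf1r, the receptor of a microglial growth factor, at 0.22 (SE 0.0917) and Olfml3, a secreted matrix protein, at -0.34 (SE 0.131). P2ry12 was at 0.18 (SE 0.0847) and Tmem119 at -0.089 (SE 0.118), and the genotypes did not overlap in 5 of 15 markers (33.3%, 4 higher and 1 lower), against 14.1% of all probe sets.

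Cxcl12, made by vessels, meninges and some neurons, was at 8.84, 8.82 and 8.85 in Tg2576 and at 8.84, 8.98 and 8.89 in WT OBs, a difference of -0.068 (interval -0.24 to 0.10). Its signalling receptor Cxcr4 was at 9.08, 8.81 and 9.0 in Tg2576 and at 8.67, 8.98 and 8.64 in WT OBs, and differed by 0.20 (interval -0.07 to 0.47). WT replicate 2 lay within the Tg2576 range of Cxcr4. Ackr3, which scavenges Cxcl12, was at 7.93, 7.82 and 7.65 in Tg2576 and at 7.86, 7.83 and 7.78 in WT OBs (-0.025, SE 0.0901). Cxcl14, a chemokine of epithelia and some neurons, was at 9.24, 9.22 and 9.16 in Tg2576 and at 9.20, 8.96 and 9.26 in WT OBs (0.059, SE 0.0947). The genotypes overlapped in each of these genes.

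**Figure D3:**
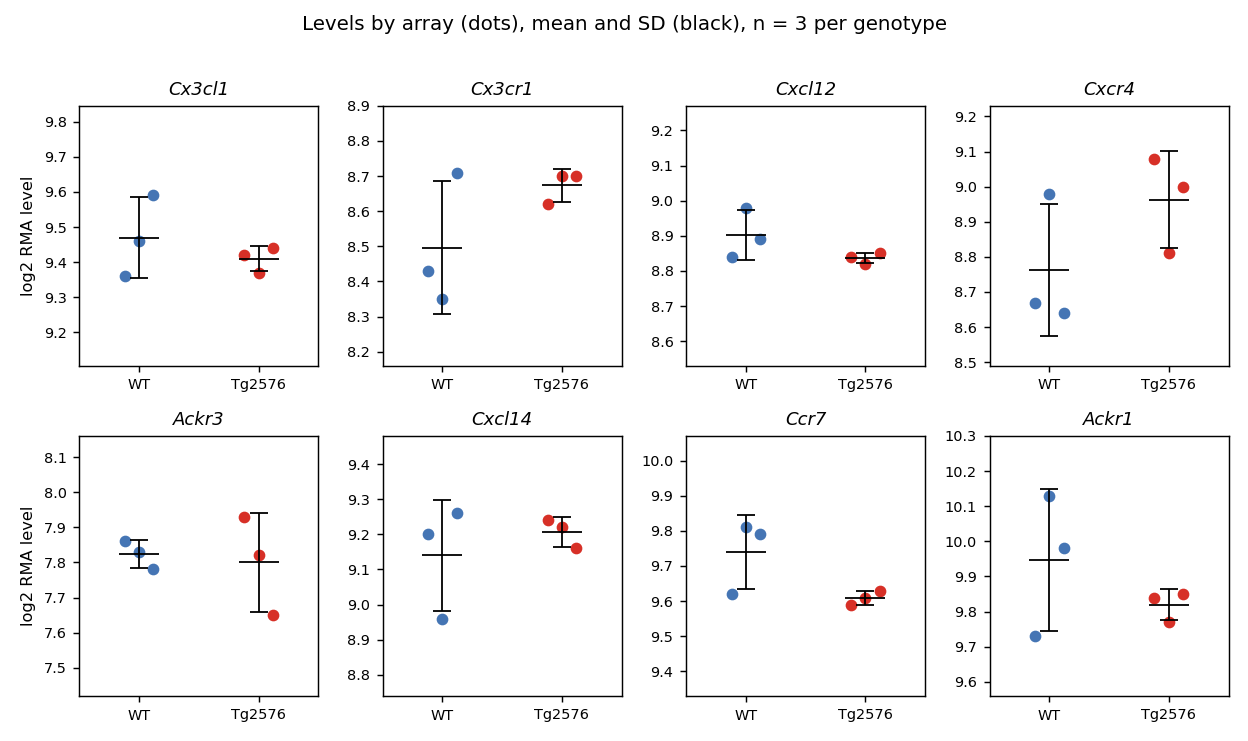
Log2 RMA level of 8 members that lie above the medians of the negative controls, in each array (dots), with the mean and SD of 3 arrays per genotype (black) and the same height of axis in all panels. The genotypes overlap in all 8; Cx3cr1 and Cxcr4 have a higher and Ccr7 and Ackr1 a lower mean in Tg2576 OBs.

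Inflammatory CC ligands, which draw monocytes, eosinophils and T cells, showed no change that passed the thresholds. None of the 13 had an unadjusted p under 0.05, and their median difference was 0.0042, from -0.20 (Ccl11) to 0.13 (Ccl12). Ccl2, the main attractant of monocytes, was at 8.36, 8.31 and 8.36 in Tg2576 and at 8.38, 8.50 and 8.38 in WT OBs. These do not overlap, but the difference was -0.074 (SE 0.0746, adjusted p = 0.841 with limma). Its receptor Ccr2 was at 4.37, 4.45 and 4.35 in Tg2576 and at 4.13, 4.69 and 4.37 in WT OBs, far under the medians of the negative controls, with a difference of -0.0085 (SE 0.132). Ccl3, Ccl4 and Ccl5, ligands of Ccr1 among other receptors, were near the negative controls as well. Ccl3 was at 6.31, 6.82 and 6.80 in Tg2576 and at 6.69, 6.70 and 6.64 in WT OBs (-0.034, SE 0.135). Ccl4 was at 6.49, 6.59 and 6.59 in Tg2576 and at 6.35, 6.51 and 6.48 in WT OBs (0.11, SE 0.0793). Ccl5 was at 6.22, 6.35 and 6.17 in Tg2576 and at 6.11, 6.28 and 6.18 in WT OBs (0.058, SE 0.0851). All 3 genes overlapped between genotypes. Ccr1, a receptor of myeloid cells, was at 5.93, 5.53 and 5.82 in Tg2576 and at 5.60, 5.46 and 5.59 in WT OBs (0.21, SE 0.112). Ccl8 was the least precise member, with levels from 4.89 to 6.10 in Tg2576 OBs and a standard error of 0.273. Of the rest, Ccl7 differed by -0.16 (SE 0.0887), and Ccl1, Ccl6, Ccl9, Ccl24 and Ccl26 by -0.038 to 0.028.

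Among the CC ligands of lymphoid and epithelial tissues, the 9 genes other than Ccl25 had an unadjusted p over 0.05. Ccl19 and Ccl21a lead lymphocytes and dendritic cells to lymph nodes through Ccr7. Ccl19 was at 7.23, 6.95 and 6.71 in Tg2576 and at 7.02, 7.20 and 6.79 in WT OBs (-0.036, SE 0.148). Ccl21a was at 9.05, 9.09 and 9.31 in Tg2576 and at 8.98, 9.19 and 9.31 in WT OBs (-0.012, SE 0.112). Ccr7 was at 9.59, 9.61 and 9.63 in Tg2576 and at 9.62, 9.81 and 9.79 in WT OBs (-0.13, SE 0.0802). In Ccr7 only WT replicate 1 fell within the Tg2576 range. The shared value of Ccl21b and Ccl21c was 8.19 in Tg2576 replicate 3, against 7.30 to 7.68 in the other 5 arrays, and these 2 copies of one gene cannot be told apart by it. Ccl17, Ccl20, Ccl22, Ccl27a and Ccl28 differed by -0.090 to 0.055.

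Within the naming rule, the CXC ligands that attract neutrophils were lower in the mean of Tg2576 OBs in 5 of 5 genes, by small amounts. Their median was -0.080, with no unadjusted p under 0.05. The CXC chemokine genes Ppbp and Pf4 fall outside the rule and were higher, by 0.33 and 0.040. Cxcl1 was at 6.77, 6.82 and 6.60 in Tg2576 and at 6.70, 6.95 and 6.95 in WT OBs (-0.13, SE 0.101). Cxcl2, Cxcl3, Cxcl5 and Cxcl15 differed by -0.11 to -0.035. Cxcr2, the receptor of neutrophils for Cxcl1, Cxcl2 and Cxcl5, was at 7.15, 7.37 and 7.02 in Tg2576 and at 6.98, 7.16 and 7.33 in WT OBs (0.026, SE 0.121), and the related Cxcr1 differed by 0.032 (SE 0.121). The mean of 9 neutrophil markers, relative to WT, was 0.73 in Tg2576 replicate 3, and -0.01 and 0.10 in replicates 1 and 2, and its part in these values was not tested.

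Interferon-induced ligands did not differ beyond the spread of the arrays. Cxcl10 was at 6.10, 6.37 and 6.41 in Tg2576 and at 6.10, 6.07 and 6.71 in WT OBs (-0.0013, SE 0.173). Cxcl9 and Cxcl11 differed by 0.21 (SE 0.123) and 0.0052 (SE 0.0832). Their receptor Cxcr3, found on activated T cells, was at 8.71, 8.79 and 8.93 in Tg2576 and at 8.75, 8.94 and 8.81 in WT OBs (-0.021, SE 0.0913). Cxcl13, which organises B cell follicles, was at 6.42, 5.93 and 6.23 in Tg2576 and at 6.29, 6.41 and 6.36 in WT OBs (-0.16, SE 0.122). Cxcr5, its receptor, was at 6.85, 6.57 and 6.96 in Tg2576 and at 7.07, 6.32 and 6.78 in WT OBs (0.073, SE 0.183). All 6 genes overlapped between genotypes. Of 13 markers of T and NK cells, 8 were near the negative controls, among them Cd3d, Cd3e and Cd3g, and so were 5 of 6 markers of B cells. Cxcl17, a mucosal chemokine, differed by 0.057 (SE 0.136).

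All 4 atypical receptors had a lower mean in Tg2576 OBs, with a median difference of -0.18, and only Ackr4 had an unadjusted p under 0.05. Ackr1, which holds chemokines on venules, was at 9.84, 9.77 and 9.85 in Tg2576 and at 9.73, 10.13 and 9.98 in WT OBs (-0.13, SE 0.107). Ackr2, the scavenger of inflammatory CC chemokines, was at 7.36, 7.02 and 7.40 in Tg2576 and at 7.27, 7.67 and 7.68 in WT OBs (-0.28, SE 0.143, unadjusted p = 0.0824 in limma). WT replicate 1 lay in or below the Tg2576 range in both genes. The remaining CC receptors Ccr1l1, Ccr4, Ccr8 and Ccr10 differed by -0.14 to -0.0094, and all 4 were near the negative controls.

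Ligands and receptors were then set side by side in 24 known pairs whose genes were both measured. The 2 genes of a pair differed in the same direction in 11 of 24. Only Ccl25 and Ccr9 both had an unadjusted p under 0.05. Receptors of adjacent genes did not share a direction either. Ccr9, Cxcr6, Xcr1, Ccr1, Ccr1l1, Ccr3 and Ccr2, which follow each other on chromosome 9 in the RefSeq annotation, differed by -0.25, -0.021, 0.29, 0.21, -0.0094, -0.34 and -0.0085. Counting members only, the 5 ligand genes from Cxcl5 to Cxcl2 on chromosome 5 were all between -0.13 and -0.035. They are the neutrophil-attracting ligands given above, of which 4 were near the negative controls and 0 had an unadjusted p under 0.05. CXC chemokine genes outside the naming rule, Ppbp (0.33) and Pf4 (0.040), were higher and were not placed on the genome here. Ligand neighbours on chromosome 11 went both ways. Ccl2, Ccl7, Ccl11, Ccl12, Ccl8 and Ccl1 differed by -0.20 to 0.13, and Ccl5, Ccl9, Ccl6, Ccl3 and Ccl4 by -0.038 to 0.11.

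**Figure D4:**
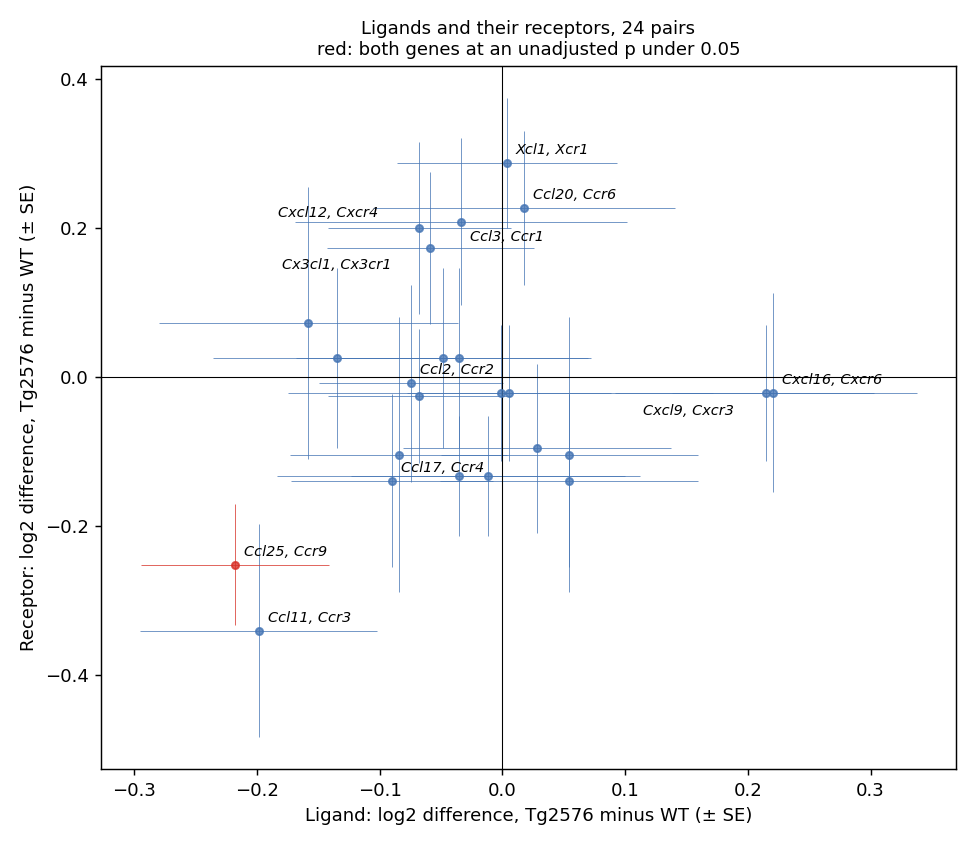
Log2 difference (Tg2576 minus WT) of the receptor against that of its ligand for 24 pairs, with lines for ± 1 SE of each; some genes stand in several pairs. Ccl25 with Ccr9, in red, is at -0.22 and -0.25, and 11 of 24 points lie in the quadrants of equal sign.

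Among the other genes of chemokine receptor signalling, a list of G proteins, arrestins, receptor kinases, regulators of G protein signalling and their effectors, 35 of 41 were measured and none passed the thresholds. The median difference was 0.0025, and 4 genes had an unadjusted p under 0.05 (11.4%, against 8.54% of all probe sets). Arrb1, a beta-arrestin that uncouples receptors from G proteins, was higher at 11.62, 11.67 and 11.63 in Tg2576 against 11.36, 11.36 and 11.53 in WT OBs, a difference of 0.22 (SE 0.0801). Fgr, a Src family kinase of myeloid cells, was at 6.83, 6.68 and 6.62 in Tg2576 and at 7.13, 7.12 and 6.91 in WT OBs. The difference of Fgr was -0.35 (SE 0.0946, adjusted p = 0.419 with limma), with an unadjusted p under 0.01 but a fold inside the thresholds. Rgs1 and Rgs16, which end G protein signalling and respond to immune and neuronal stimuli, differed by -0.30 (SE 0.104) and -0.20 (SE 0.0754), and Rgs1 was near the negative controls. The arrays of the genotypes did not overlap in 10 of these 35 genes, 28.6%, of which 4 were higher and 6 lower, against 14.1% of all probe sets.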

How the data were processed

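RNA of 6 OBs, 3 per genotype, was measured on Clarion S arrays. The authors deposited 1 log2 value per probe set, made by RMA (background correction, quantile normalization between arrays and summary of probes). The version of RMA and the set of arrays normalized together are not given in the sources used here. Of 28815 probe sets, 63 spike-in, 1324 positive and 5222 negative control sets were left out of the test. Of the 22206 tested, 19572 had 1 gene symbol in the platform table, 0 had several and 2634 had none.

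The 2 genotypes were set against each other in limma (version 3.58.1, R 4.3.3, moderated variance, 8.47 degrees of freedom), with the p threshold of the study's methods and the folds named in its supplement. p-values were adjusted over all probe sets by the Benjamini-Hochberg method. An exact test of 3 arrays against 3 cannot go below a p of 0.1, so single genes were tested only in limma. Members near the negative controls had both genotype means at or under the highest control median. Values per array are given for 30 members by a rule. They are members with an unadjusted p under 0.05, members above the control medians whose genotypes do not overlap, and a list of well-known ligands and receptors. Ccr6 is given by array outside this rule and is not in the counts over the 30. Genes outside the family were named as the 2 of smallest p in a list, and others of these lists after their values were seen. Members, lists and pairs were chosen with earlier results of these data known. Columns of the authors' own fold changes and p-values in the supplement were not used.

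The fit was repeated with limma-trend (robust), with array weights, with cyclic loess, quantile or median normalization, filters on the mean (at least 6, or above the control medians), probe sets with 1 symbol, the mean of a gene's probe sets, a replicate block, other fold thresholds and leaving out each array. The fit was tested on simulated data. Figures were drawn with Python 3.11.15, pandas 2.3.3 and matplotlib 3.10.9.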

Additional observations from a re-analysis of the deposited data

How the results depend on the processing

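No member passed the thresholds under any alternative, and the median member difference stayed within 1 SD of the replicates, from -0.028 (median centring) to 0.010 (cyclic loess), and from -0.080 to 0.014 without 1 array. The number of members at an unadjusted p under 0.05 was 2 among the 31 members above the medians of the negative controls (6 in the main analysis) and 4 to 8 without 1 array. Without a fold threshold 468 probe sets and 1 signalling gene, Fgr, were called, and without 1 array 169 to 249 probe sets were. The sample labels do not say whether the replicate numbers pair the mice. The deviations of arrays with the same number correlated at 0.036, -0.038 and -0.043, and those with different numbers at -0.126 to 0.149. With 3 arrays per genotype these correlations cannot decide it. With a replicate block 0 members, 225 probe sets and 0 signalling genes were called, and 5 members had an unadjusted p under 0.05. Of 522 values of the 30 members given by array under the rule above, 490 kept their sign. The other 32, of 12 members, had the other sign, all without a call. The limma-trend fit, the filters, 1 symbol, the mean of probe sets, the replicate block and other folds leave these differences as they were. Part of the 490 was therefore fixed in advance. Ccl19 was at 0.041 with array weights. Ccr2 was at 0.036 with array weights, 0.034 after cyclic loess and 0.030 after quantile normalization, Cxcl10 at 0.031 and 0.017 and Cxcr6 at 0.011 and 0.0024 after the latter 2. Without 1 array the sign changed for Ackr3 (-0.089 to 0.050), Ccl19 (-0.17 to 0.091), Ccl21a (-0.10 to 0.065), Ccl3 (-0.12 to 0.13), Ccr2 (-0.14 to 0.14), Cx3cl1 (-0.11 to 0.0028), Cxcl10 (-0.11 to 0.21), Cxcl14 (-0.031 to 0.12), Cxcr2 (-0.069 to 0.11), Cxcr3 (-0.083 to 0.033), Cxcr5 (-0.13 to 0.25) and Cxcr6 (-0.16 to 0.079). The cause of these moves was not tested.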

Other observations

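Genes that process, present or resemble chemokines lay mostly on the higher side in Tg2576 OBs. Of 20 such genes on a list, 19 were measured and none passed the thresholds. At an unadjusted p under 0.05 there were 5, all higher (26.3%, against 4.57% of all probe sets that were higher), and the median difference was 0.083, with 15 above 0 and 4 below. Mmp14, a membrane protease that cleaves Cxcl12 among other substrates, was at 8.64, 8.80 and 8.56 in Tg2576 and at 8.29, 8.32 and 8.45 in WT OBs, a difference of 0.31 (SE 0.0900). Mmp9, a secreted gelatinase that trims CXC ligands, was at 7.09, 6.94 and 7.25 in Tg2576 and at 6.68, 6.86 and 6.77 in WT OBs (0.32, SE 0.0988). Sdc4, a heparan sulfate proteoglycan that can hold chemokines, was at 9.29, 9.32 and 9.41 in Tg2576 and at 9.0, 9.13 and 9.14 in WT OBs (0.25, SE 0.0793). All Tg2576 arrays lay above all WT arrays in each of these 3 genes. Their adjusted p with limma was 0.453 for Mmp14, 0.477 for Mmp9 and 0.488 for Sdc4. The CXC chemokine genes of platelets, Ppbp and Pf4, have symbols outside the naming rule. Ppbp was at 0.33 (SE 0.0855, adjusted p = 0.393 with limma) but near the negative controls, and Pf4 at 0.040 (SE 0.107). Markers of astrocytes and endothelium were higher in the same arrays, as given above, and their part in these differences was not tested.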
